A study of Mus musculus with 36 samples.

Results

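*Msx1*, *Msx2* and *Alx4* are 3 homeobox genes among the 30125 genes listed over the 3 normalized-count tables of cultured mouse nephron progenitor cells (NPCs). They were chosen by their wild-type levels in high against low CHIR, with results of these data known, and *Msx1* is among the largest increases. The values of that contrast, and of high with no CHIR, which shares its high CHIR libraries, are given as a description with no test. Whether the remaining comparisons had a part in the choice is not known, so they cannot be taken as independent of it. Each gene was found in each table by its Ensembl identifier, so that all 3 members were present in all 3 tables.

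NPCs are the cells of the embryonic kidney that either renew themselves or turn into nephrons, and here they were taken from E16.5 kidneys of several embryos and grown in a defined expansion medium. CHIR99021 (CHIR) inhibits the kinase GSK3β and so protects β-catenin from destruction; it was given at 0 (no CHIR), 1.25 (low CHIR) or 5 µM (high CHIR). The series measured RNA by sequencing in 36 libraries and asked which responses to CHIR need β-catenin, encoded by *Ctnnb1*, or its DNA-binding partners Tcf7l1, Tcf7l2, Tcf7 and Lef1. The purpose of reading the 3 homeobox genes across it is to see how their levels follow the CHIR dose and both kinds of removal.

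Wild-type NPCs, for which the labels name no editing, gave 3 libraries at each of the 3 doses. The β-catenin table held 8 groups of 2 libraries, each at low or high CHIR. NPCs labelled Cas9-eGFP received a GFP or a Ctnnb1 sgRNA. NPCs labelled B-catenin_c_c, with a conditional *Ctnnb1* allele in every cell of both arms, received Cre mRNA (Cre) or none (no Cre). The Lef/Tcf table held Cas9-eGFP NPCs given sgRNAs against all 4 factors (QKO) or a GFP sgRNA (QKO control), with 3 libraries in each group except QKO in low CHIR, which had replicates 1 and 3 only. Transfected cells of the edited series were sorted on an mCherry reporter, which marks transfection and not editing, so a sorted population can hold unedited cells. Nothing in the labels ties a library to 1 animal, and p-values measure only the spread between these libraries.

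Msx1 and Msx2 are close relatives, homeodomain proteins of the Msh type that mostly repress transcription and are known as targets of BMP and Wnt signalling in limb buds, teeth, skull and neural crest. Alx4 is a paired-type homeodomain protein of limb and craniofacial mesenchyme. In canonical Wnt signalling, β-catenin enters the nucleus and switches on genes through Lef/Tcf factors, and several of those genes encode feedback inhibitors of the pathway.

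The homeobox, the stretch that encodes the DNA-binding homeodomain, is printed for *Msx2* and *Alx4* because it shows how far an Msx gene and *Alx4* are apart, and so how separately their reads could be counted. *Msx2* (ENSMUSG00000021469; chr13:53466884-53473074, minus strand of GRCm38) carries it whole in exon 2 of 2. *Alx4* (ENSMUSG00000040310; chr2:93642384-93681339, plus strand) carries it over exons 2 and 3 of 4. *Msx1* is ENSMUSG00000048450, at chr5:37820485-37824583 on the minus strand. The 180 coding bases lie at chr13:53468370-53468549 in *Msx2*, and at chr2:93668528-93668665 with chr2:93675296-93675337 in *Alx4*. Each was read from the GENCODE transcripts of GRCm38, 5′ to 3′ on the coding strand, and capitals in the *Alx4* line mark bases that differ from *Msx2*.
Msx2 homeobox: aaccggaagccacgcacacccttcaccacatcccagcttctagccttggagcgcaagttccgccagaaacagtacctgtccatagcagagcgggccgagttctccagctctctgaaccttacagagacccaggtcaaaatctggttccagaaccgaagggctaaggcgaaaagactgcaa
Alx4 homeobox: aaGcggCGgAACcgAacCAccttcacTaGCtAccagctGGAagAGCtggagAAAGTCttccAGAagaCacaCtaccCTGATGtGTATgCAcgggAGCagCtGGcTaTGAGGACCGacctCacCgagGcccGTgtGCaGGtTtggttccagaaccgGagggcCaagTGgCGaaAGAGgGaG
The homeoboxes of *Msx2* and *Alx4* shared 100 of 180 bases (55.6%), and over whole transcripts these genes shared no exact run longer than 14 bases. Reads were 150 bases long, and those that matched several places were not counted, so the counts of *Msx2* and *Alx4* can be read separately.

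Library depth ranged from 13089780 to 76071568 reads on genes (median 18990328), and values were normalized separately in each table, so tests stayed within a table. A change is called here where limma's Benjamini-Hochberg adjusted p over all genes tested was under 0.05 and the log2 fold change 0.5 or more in size; the wild-type contrast of the high with the low dose needed 1 or more. Genes whose mean over a table was under 10 normalized counts were not tested. Where groups are said not to overlap, this only describes the libraries, as the share of all genes without overlap was not counted. Groups of 2 libraries can separate easily with no real difference. Of the 9 pairs of member and table, 8 passed; *Msx1* in the β-catenin table, at a mean of 8.13, did not, and its fitted values there come from the fit with no filter. *Msx1* passed in the wild-type and Lef/Tcf tables only through the high CHIR libraries of wild-type and QKO control cells, as its mean over the remaining libraries was 5.17 and 8.51. A gene that passes in this way had to average higher in those libraries than in the rest. Tests of *Msx1* that use those libraries are therefore partly set by the filter. All 7 progenitor markers examined, *Six2* and *Cited1* among them, were detected in every table. In bulk RNA, fewer cells of a type and less RNA per cell cannot be told apart.

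*Msx1* was near its detection limit without high CHIR. Wild-type NPCs in no CHIR held 0.765, 1.46 and 4.47 normalized counts of it (1 to 4 reads), and those in low CHIR held 5.26, 9.49 and 9.58. In high CHIR the 3 libraries held 978, 403 and 18058. All high CHIR libraries stood far above all others, and replicate 3 stood far above its own group, at 26.1 times the mean of the other 2. The group means were 2.23 ± 1.97 (SD, n = 3), 8.11 ± 2.47 and 6480 ± 10031, so in high CHIR the SD exceeded the mean. The ratio of high to low CHIR was 799-fold with replicate 3 and 85.2-fold without it. The fitted log2 difference of high from low CHIR was 7.77 (standard error, SE, 1.13), and that of high from no CHIR was 9.39 (SE 1.13).

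*Msx2* followed the dose in steps. It had 62.2, 49.8 and 32.4 normalized counts in no CHIR, 193, 204 and 139 in low CHIR and 589, 367 and 1952 in high CHIR. No library of a lower dose reached any library of the next dose. Means were 48.1 ± 15.0 (SD, n = 3), 179 ± 34.9 and 969 ± 858, which put high above low CHIR by 5.42-fold, or by 2.68-fold without replicate 3. On the log2 scale high CHIR lay 2.08 (SE 0.52) above low and 3.98 (SE 0.52) above no CHIR.

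*Alx4* had its highest wild-type mean at the middle dose. The no CHIR libraries held 9.18, 0 and 6.70 normalized counts, where the 0 allows up to 4.39, and the low CHIR libraries held 61.8, 53.2 and 35.9. In high CHIR the values were 5.60, 18.1 and 51.4. Low CHIR lay wholly above no CHIR, whereas high CHIR spread over most of the range between them and overlapped both. The fitted difference of high from low CHIR was -1.41 (SE 0.94), that of high from no CHIR was 2.13 (SE 0.94), and without replicate 3 the low CHIR mean was 4.23 times the high CHIR mean. As background to these descriptions, 3.99% of all genes tested were called higher in high than in low CHIR, 3.61% lower, and 11.4% higher in high than in no CHIR.

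**Figure D1:**
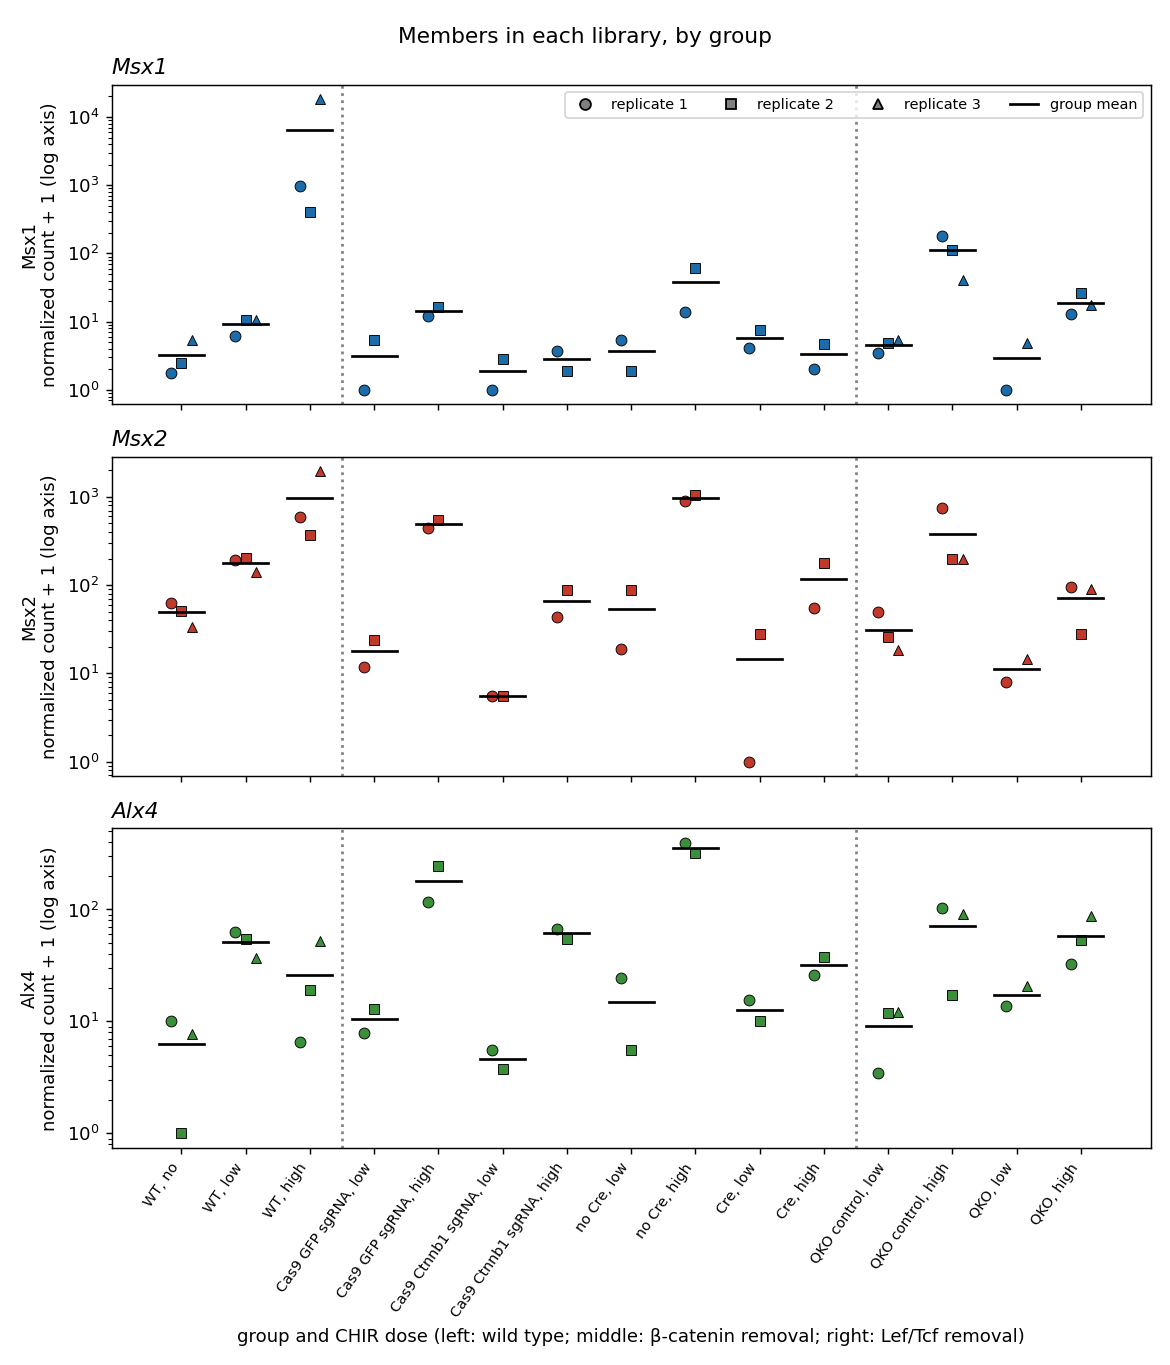
Normalized counts plus 1 of *Msx1*, *Msx2* and *Alx4* (log axis) in each of the 36 libraries, by group and CHIR dose; each point is a library, its shape the replicate number, and the black line the group mean. *Msx1* and *Msx2* stand highest in high CHIR of wild-type and control cells, and wild-type replicate 3 at 18058 counts of *Msx1* stands above its group.

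Wild-type high CHIR replicate 3, the highest of its group for each of the 3 members, also stood apart in other genes. Its correlations with the other 2 libraries of its group, 0.910 and 0.921 over genes, were the lowest between replicates of the series, the next being 0.952. It held 436 normalized counts of *T* (brachyury, a mesoderm factor) against 0 and 0, 173 of *Evx1* against 28.0 and 8.38, and 3256 of *Dlx5*, a homeobox relative of the Msx genes, against 106 and 44.7. The summed level of the posterior mesoderm list (5 of 9 genes present) was 622 there and 38.1 and 23.7 in the other 2. The sum for neural crest and cranial mesenchyme (3 of 5 genes present) went the other way, at 43.0 against 509 and 731. *Tfap2a* made most of it in the other 2 libraries, at 435 and 657 against 15.9 in replicate 3. *Twist1* of the same list was at 27.1 in replicate 3 against 45.9 and 23.7. Sums for ureteric epithelium (5 of 6), at 1715 against 5929 and 5639, and for endothelium (6 of 6), at 82.3 against 812 and 652, were lower too. The part of these differences in the members' levels was not tested.

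Progenitor and induction markers also moved with the dose. The summed progenitor markers lay between 10134 and 32972 normalized counts in no and low CHIR and between 306 and 405 in high CHIR, and 7 of 7 were called lower in high than in low CHIR. Sums of the 6 induction markers, *Wnt4*, *Lef1* and *Jag1* among them, were 1428 to 5776 in no and low CHIR and 24388 to 33698 in high CHIR. Of these, 4 of 6 were called higher in high than in low CHIR, and the lowest log2 difference was -0.24. The part of this change of state in the members' levels was not tested.

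The step from low to no CHIR, which shares its low CHIR libraries with the contrast counted as used, changed none of the members by the rule. All 3 had lower means in no CHIR, and in each gene every no CHIR library lay under every low CHIR library. The log2 difference of no from low CHIR was -3.55 (SE 0.94) for *Alx4*, with an unadjusted p of 0.00352 and a limma adjusted p of 0.0583. For *Msx2* it was -1.90 (SE 0.52; adjusted p = 0.0634), and for *Msx1* -1.62 (SE 1.13; adjusted p = 0.433). Of all genes tested, 2.6% were called lower in this step. Without no CHIR replicate 1, the *Alx4* difference was -4.17 with an adjusted p of 0.0475, which would be called. DESeq2 on the recovered reads also called *Alx4* and *Msx2* lower, at adjusted p of 0.00644 and 0.0065.

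Control cells of the edited series gave the CHIR response in libraries other than the wild-type ones. As results of these data were known when the members were chosen, these libraries cannot be shown to be independent of the choice. In no Cre cells *Alx4* had 23.3 and 4.58 normalized counts in low CHIR and 391 and 316 in high CHIR. *Msx2* had 17.8 and 87.9 in low CHIR and 886 and 1049 in high CHIR. Both high CHIR libraries were far above both low CHIR libraries for each gene. *Alx4* rose by 4.92 on the log2 scale (SE 0.63, adjusted p = 0.000219) and *Msx2* by 4.56 (SE 1.15, adjusted p = 0.0259), so 2 of the 2 members tested were called higher, where 2.8% of all genes were. For *Msx2* the call was lost without low CHIR replicate 1 (3.44, adjusted p = 0.219) and without high CHIR replicate 1 or 2 (adjusted p = 0.105 and 0.115).

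Cas9 NPCs with the GFP sgRNA gave the same order. *Alx4* had 6.95 and 11.9 normalized counts in low CHIR and 116 and 241 in high CHIR. *Msx2* had 10.9 and 22.7 in low CHIR and 441 and 546 in high CHIR. The doses did not overlap for either gene. *Alx4* rose by 4.06 (SE 0.63, adjusted p = 0.00121) and *Msx2* by 4.87 (SE 1.15, adjusted p = 0.0201), again 2 of 2, against 2.98% of all genes. Leaving out any 1 of the 4 libraries took *Msx2* over the threshold, with adjusted p from 0.0635 (without low CHIR replicate 2) to 0.142 (without low CHIR replicate 1), through 0.0855 and 0.128 without high CHIR replicates 1 and 2.

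*Msx1* had far fewer normalized counts in these cells than in wild-type high CHIR. The tables were normalized separately. These cells also differ from wild-type NPCs in genotype, transfection and sorting, so the comparison is a description with no test. No Cre cells held 4.44 and 0.916 normalized counts in low CHIR and 12.9 and 61.2 in high CHIR. Cas9 cells with the GFP sgRNA held 0, which allows up to 2.98, and 4.33 in low CHIR and 11.2 and 15.3 in high CHIR. High CHIR lay above low CHIR in both sets, and the higher no Cre value rested on replicate 2. Fitted with no filter, the differences were 3.19 (SE 0.98, adjusted p = 0.0823) and 2.61 (SE 0.98, adjusted p = 0.184), neither past the threshold. With the replicate block, which treats the same numbers as pairs across the Cre and Cas9 sets, the no Cre difference was called (adjusted p = 0.0449). Numbers did not pair these sets throughout, so this call is uncertain. Fitted changes of a gene counted in so few reads depend on the 1 added before taking logs.

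QKO control cells showed the rise in all 3 members. *Msx1* had 2.45, 3.95 and 4.32 normalized counts in low CHIR and 178, 111 and 39.3 in high CHIR. *Msx2* had 48.9, 24.7 and 17.3 in low CHIR and 740, 198 and 199 in high CHIR. *Alx4* had 2.45, 10.9 and 11.2 in low CHIR and 103, 16.2 and 89.3 in high CHIR. No gene's doses overlapped, although *Alx4* in high CHIR replicate 2 lay close to the low CHIR libraries. *Msx1* rose by 4.37 (SE 0.66, adjusted p = 0.00085), *Msx2* by 3.43 (SE 0.61, adjusted p = 0.0026) and *Alx4* by 2.78 (SE 0.71, adjusted p = 0.0196). All were called, where 6.98% of all genes were called higher, although *Msx1* had passed the filter only through these high CHIR libraries. Without high CHIR replicate 1 the *Msx1* difference was 3.90 (adjusted p = 0.00433) and that of *Msx2* 2.80 (adjusted p = 0.00858). The *Alx4* call was lost without low CHIR replicate 1 (adjusted p = 0.0827), without high CHIR replicate 1 (0.0687) and without high CHIR replicate 3 (0.0737).

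QKO control high CHIR replicate 1 was the highest of its group for all 3 members, and it differed in another way. The summed blood and macrophage markers (4 of 5 genes present) reached 2569 normalized counts there, of which *Lyz2* made 2474, while all other libraries of the table held at most 34.9. The part of this in the members' levels was not tested. Unblocked values without this library stand beside the members' tests that use it, while the fits with the replicate block and the counts for gene lists include it.

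In high CHIR all 3 members had lower values in Cre cells than in no Cre cells, and *Alx4* was the member called. *Alx4* had 391 and 316 normalized counts in no Cre cells and 25.2 and 36.4 in Cre cells. *Msx2* had 886 and 1049 against 54.5 and 177, and *Msx1* 12.9 and 61.2 against 1.01 and 3.64. For each gene both Cre libraries lay under both controls. *Alx4* fell by 3.49 (SE 0.63, adjusted p = 0.0029), an 11.5-fold difference of the means, and it was the 1 member called lower of the 2 tested, where 2.75% of all genes were. *Msx2* differed by -3.28 (SE 1.15, adjusted p = 0.107), which did not pass, and edgeR on the recovered reads put it at -3.07 (adjusted p = 0.0323). *Msx1*, fitted with no filter, differed by -3.27 (SE 0.98, adjusted p = 0.0693). With the replicate as a block, *Msx2* (adjusted p = 0.0218) and *Msx1* (adjusted p = 0.0379) were called lower too at the same differences. Of all genes, 4.08% were called lower with it. That block is shared with the Cas9 set, although deviations of same-numbered libraries across the sets correlated at -0.265 to 0.278, so these calls are uncertain.

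Cas9 removal in high CHIR gave values in the same order, with no member called, where 1.64% of all genes were called lower. *Msx2* had 441 and 546 normalized counts with the GFP sgRNA and 42.4 and 86.3 with the Ctnnb1 sgRNA. *Alx4* had 116 and 241 against 66.3 and 53.7, and *Msx1* 11.2 and 15.3 against 2.76 and 0.88. The groups did not overlap for any of the 3, and on a log scale the gap was narrowest for *Alx4*. How many of all genes separate in this way was not counted. The log2 differences were -3.00 for *Msx2* (SE 1.15, adjusted p = 0.165), -1.47 for *Alx4* (SE 0.63, adjusted p = 0.212) and, with no filter, -2.41 for *Msx1* (SE 0.98, adjusted p = 0.254). DESeq2 on the recovered reads called *Alx4* lower (-1.58, adjusted p = 0.0335). With the replicate block *Msx2* was called lower (adjusted p = 0.0455), where 3.12% of all genes were. That block is shared with the Cre set, so the call is uncertain.

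In low CHIR, where the members were near the bottom of their range, neither removal of β-catenin changed a member by the rule. *Msx2* had 17.8 and 87.9 normalized counts in no Cre cells and 0, which allows up to 3.10, and 27.04 in Cre cells. *Alx4* had 23.3 and 4.58 against 14.5 and 9.01, and *Msx1* 4.44 and 0.916 against 3.10 and 6.44. Each of these pairs of groups overlapped. The Cre differences were -2.95 (SE 1.15, adjusted p = 0.370) for *Msx2* and 0.10 (SE 0.63, adjusted p = 0.978) for *Alx4*, and 0.149% of all genes were called lower. Without Cre low CHIR replicate 2, the library left was the one at 0, and *Msx2* then differed by -5.35 (adjusted p = 0.0342). For *Alx4* the sign turned without no Cre replicate 2 (-0.97) or Cre replicate 1 (-0.22).

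With the Ctnnb1 sgRNA in low CHIR, *Msx2* had 4.57 and 4.59 normalized counts against 10.9 and 22.7 with the GFP sgRNA. *Alx4* had 4.57 and 2.76 against 6.95 and 11.9. Both genes lay lower without overlap, but neither difference passed the test, at -1.59 (SE 1.15) and -1.15 (SE 0.63), each with an adjusted p of 1. Only 0.0179% of all genes were called lower. *Msx1* held 0, which allows up to 2.74, and 1.84 counts against 0 and 4.33, so that no difference was detectable at this depth.

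In cells given the Ctnnb1 sgRNA or Cre, *Alx4* and *Msx2* still lay higher in high than in low CHIR. Such cells can include unedited ones, and the paper reports that β-catenin protein was reduced, not absent. The part of either in these values was not tested. With the Ctnnb1 sgRNA *Alx4* was at 4.57 and 2.76 normalized counts in low CHIR and at 66.3 and 53.7 in high CHIR, a rise of 3.73 (SE 0.63, adjusted p = 0.0116). *Msx2* was at 4.57 and 4.59 in low CHIR and at 42.4 and 86.3 in high CHIR, 3.46 higher (SE 1.15, adjusted p = 0.307). *Alx4* was thus the 1 member called of 2 tested, where 0.626% of all genes were called higher; the call was lost without any 1 of the 4 libraries (adjusted p = 0.0541 and 0.163 without low CHIR replicates 1 and 2, and 0.175 and 0.0968 without high CHIR replicates 1 and 2). *Msx1* stayed at 0.88 to 2.76 counts in high CHIR, overlapping low CHIR (0.66, SE 0.98, with no filter).

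In Cre cells no member was called between the doses. Between low and high CHIR *Alx4* went from 14.5 and 9.01 to 25.2 and 36.4 normalized counts, a difference of 1.33 (SE 0.63, adjusted p = 1.0). *Msx2* went from 0 and 27.04 to 54.5 and 177, a difference of 4.23 (SE 1.15, adjusted p = 0.418). Neither passed, and 0.28% of all genes were called higher. Without Cre low CHIR replicate 2, which leaves the low CHIR library at 0, the *Msx2* difference was 6.64 (adjusted p = 0.0082). *Msx1* had 3.10 and 6.44 in low and 1.01 and 3.64 in high CHIR, and the doses overlapped.

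Whether the CHIR response itself differed after removal was tested as an interaction, and no member passed. For *Alx4* the response in Cre cells was 3.59 smaller on the log2 scale than in no Cre cells (-3.59, SE 0.89, adjusted p = 0.0897). It was called with DESeq2 on the recovered reads (-3.35, adjusted p = 0.00636) and without no Cre low CHIR replicate 1 (-4.65, adjusted p = 0.0137). For *Msx2* it was -0.33 (SE 1.63, adjusted p = 0.98), with a sign that turned without no Cre low CHIR replicate 1 (0.79), Cre low CHIR replicate 2 (2.07) or Cre high CHIR replicate 1 (0.51). Between the Ctnnb1 and GFP sgRNA the differences in response were -0.33 (SE 0.89, adjusted p = 0.972) for *Alx4* and -1.41 (SE 1.63, adjusted p = 0.918) for *Msx2*, and the *Alx4* sign turned without GFP sgRNA low CHIR replicate 1 (0.02) or high CHIR replicate 2 (0.20). Called lower were 0.25% and 0.0477% of all genes in these interactions. By limma, the difference of *Alx4* in Cre cells is therefore not shown to be particular to high CHIR.

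Lef/Tcf removal in high CHIR was compared next, and the difference between the genes' responses was not tested. *Msx1* had 178, 111 and 39.3 normalized counts in QKO control cells and 12.2, 24.9 and 16.4 in QKO cells. *Msx2* had 740, 198 and 199 against 94.7, 27.01 and 89.7, and *Alx4* 103, 16.2 and 89.3 against 31.3, 51.9 and 86.8. Both Msx genes lay lower in every QKO library than in any control library, while the *Alx4* values of the groups overlapped. The differences were -2.36 (SE 0.66, adjusted p = 0.0917) for *Msx1*, -2.31 (SE 0.61, adjusted p = 0.0784) for *Msx2* and -0.04 (SE 0.71, adjusted p = 0.987) for *Alx4*. By the rule none of the 3 was called, where 0.491% of all genes were called lower.

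Replicate numbers paired the libraries of this table, as same-numbered libraries deviated together in every pair. With the replicate as a block, *Msx1* (SE 0.65, adjusted p = 0.0485) and *Msx2* (SE 0.49, adjusted p = 0.015) were both called lower. The differences were the same, and 2.14% of all genes were called lower. *Msx1* had passed the filter only through the control libraries compared here, so its call is partly set by the filter. Paired by number, *Msx1* in control cells was 14.6, 4.46 and 2.40 times its level in QKO cells, and *Msx2* 7.81, 7.34 and 2.22 times. *Alx4* was 3.29 times as high in the control of pair 1, 3.21 times as high in QKO of pair 2 and near equal in pair 3, at 1.03. Without control replicate 1, the library with the macrophage marker, the unblocked differences were -1.89 for *Msx1* (adjusted p = 0.263) and -1.68 for *Msx2* (adjusted p = 0.216). Pair 1 holds that library, and the blocked fit was not repeated without it, so the blocked calls have no such check. Without control replicate 3 the *Msx1* difference was -2.97 (adjusted p = 0.0388). That of *Alx4* turned to 0.43 or 0.33 without control replicate 1 or 3, and to 0.32 without QKO replicate 1.

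In low CHIR no member was called on Lef/Tcf removal. *Msx1* had 2.45, 3.95 and 4.32 normalized counts in control and 0, which allows up to 3.49, and 3.91 in QKO cells. *Msx2* had 48.9, 24.7 and 17.3 against 6.97 and 13.7, and *Alx4* 2.45, 10.9 and 11.2 against 12.8 and 19.5. *Msx2* lay lower and *Alx4* higher in both QKO libraries, while *Msx1* overlapped. The differences were -1.02 (SE 0.74), -1.40 (SE 0.69) and 1.08 (SE 0.79), each with a limma adjusted p of 0.904. The *Msx1* sign turned without QKO replicate 1 (0.13). Of all genes, 0% were called lower by limma or by edgeR, 1 gene by DESeq2 and 268 genes by limma at an unadjusted p under 0.05.

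QKO cells still held more of each member in high than in low CHIR. The high CHIR libraries, at 12.2 to 24.9 normalized counts of *Msx1*, 27.01 to 94.7 of *Msx2* and 31.3 to 86.8 of *Alx4*, lay above both low CHIR libraries for each gene. The differences were 3.03 (SE 0.74, adjusted p = 0.054), 2.53 (SE 0.69, adjusted p = 0.0845) and 1.66 (SE 0.79, adjusted p = 0.366), none called, where 1.42% of all genes were called higher. With the replicate block *Msx1* (2.88, SE 0.75, adjusted p = 0.0462) and *Msx2* (2.85, SE 0.56, adjusted p = 0.0128) were called, where 3.19% of all genes were. Without QKO low CHIR replicate 3, *Msx1* was called in the unblocked fit too (4.18, adjusted p = 0.0342), the library left being the one at 0. The CHIR response of QKO cells differed from that of control cells by -1.34 (SE 0.99), -0.90 (SE 0.92) and -1.12 (SE 1.06) for *Msx1*, *Msx2* and *Alx4*, each with an adjusted p of 1.0, where 0.0189% of all genes were called lower. Without control high CHIR replicate 1 these were -0.87, -0.27 and -0.65, none called.

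**Figure D2:**
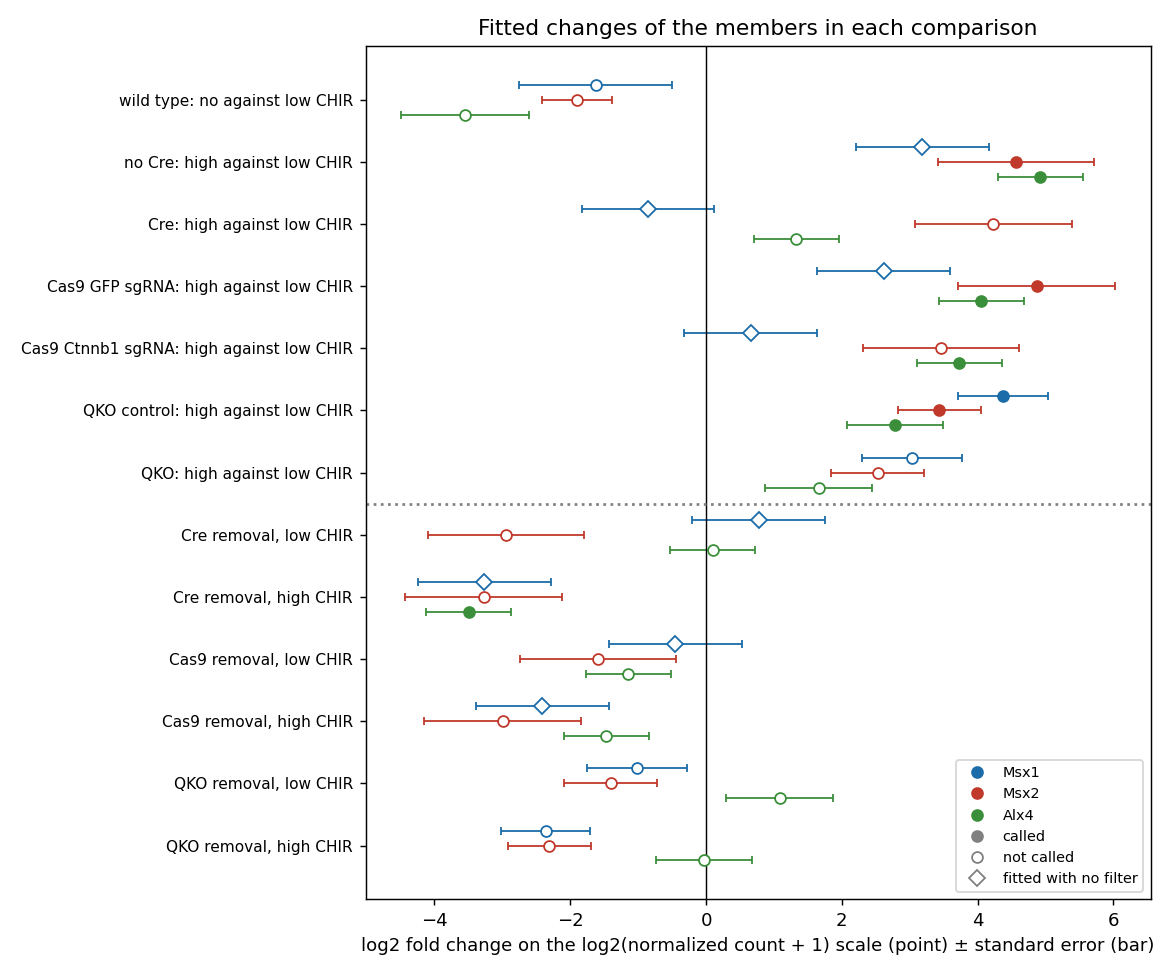
Fitted log2 fold changes (points) with standard errors (bars) of *Msx1*, *Msx2* and *Alx4* in each tested comparison, responses to CHIR above the dotted line and removals under it; filled points are called, open points are not, and diamonds are *Msx1* fitted with no filter. *Alx4* on Cre removal in high CHIR, at -3.49, is the filled point among the removals.

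Targeted genes served as the check of the labels. *Ctnnb1* was lower with its sgRNA, by 0.89 in high CHIR (adjusted p = 0.0429) and with a difference of -1.16 in low CHIR (adjusted p = 0.252). In Cre cells the differences were 0.06 in high and -0.33 in low CHIR, neither called. Gene-level counts need not fall where Cre cuts out part of a gene, so they cannot check that label. In QKO cells of high CHIR *Tcf7* fell by 1.64 (adjusted p = 0.0175), and the differences were -2.12 for *Lef1*, 0.15 for *Tcf7l1* and -0.35 for *Tcf7l2*, not called. With the replicate block *Lef1* was called (adjusted p = 0.0476). *Tcf7* and *Lef1* also rose with high CHIR in QKO control cells, so their lower values in QKO cells of high CHIR are no separate check of the guides. In low CHIR none of the targeted genes was called in QKO cells. Guide-made mutations need not lower the RNA either.

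Levels per kilobase of exon let the members be compared with each other. In wild-type high CHIR *Msx1* stood first, at 2092 ± 3239 normalized counts per kb (SD, n = 3), over *Msx2* at 296 ± 262 and *Alx4* at 3.55 ± 3.35. In every other group *Msx2* had the highest mean per kb of the 3. In no Cre high CHIR it was at 295 ± 35.02 per kb (n = 2), with *Alx4* at 50.1 ± 7.49 and *Msx1* at 12.0 ± 11.03. QKO control cells in high CHIR had 116 ± 95.4 per kb of *Msx2*, 35.4 ± 22.4 of *Msx1* and 9.84 ± 6.61 of *Alx4*. Without replicate 1, the library with the macrophage marker, these were 60.5, 24.3 and 7.47 per kb. *Msx1* thus stood over *Msx2* in high CHIR in wild-type NPCs and in none of the 3 control sets by their means. Wild-type replicate 3 sets the size of the mean but not the order, as the other 2 libraries averaged 223 per kb of *Msx1* and 146 of *Msx2*.

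Ordered by mean normalized count within the β-catenin table, *Msx2* and *Alx4* ran alike at the top: no Cre, then GFP sgRNA, both in high CHIR, with no overlap between neighbours. For *Alx4* the Ctnnb1 sgRNA and then the Cre cells in high CHIR followed, each apart from the next. For *Msx2* the Cre and Ctnnb1 sgRNA cells in high CHIR and the no Cre cells in low CHIR overlapped in turn. *Msx1* in the 2 control sets in high CHIR overlapped with each other and stood above all remaining groups, which overlapped in a row. In the Lef/Tcf table the order of *Msx1* and *Msx2* was control high, QKO high, control low and QKO low, with overlap between the last pair for *Msx1* and between QKO high and control low for *Msx2*. *Alx4* overlapped between control and QKO in high CHIR and was lowest in control low CHIR.

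Feedback genes of the Wnt pathway, 12 in the list, moved in the same comparisons. In high against low CHIR 8 of 11 tested rose in no Cre cells, with 1 lower (median 2.13). With the GFP sgRNA 9 rose and 1 fell (median 2.44), and 8 rose in QKO control cells (median 1.80). With the replicate block *Apcdd1* (1.74) also rose and *Lgr5* (-0.50) fell in QKO control cells. Medians of all genes were between -0.0047 and 0.0036 in these comparisons. *Sp5*, a transcription factor induced by Wnt, rose by 5.34, 4.46 and 5.71, *Notum*, a secreted Wnt inhibitor, by 5.02, 4.37 and 3.26, and *Lef1* by 3.95, 3.61 and 5.37. On Cre removal in high CHIR 8 of 11 fell (median -1.70), led by *Sp5* (-4.07), *Lef1* (-3.34) and *Notum* (-3.21), while the inhibitor *Dkk1* rose by 2.50. Cas9 removal lowered 5 of 11 (median -1.35), led by *Sp5* (-3.88) and *Notum* (-2.83). On Lef/Tcf removal 1 of 11 fell, *Tcf7*, and 5 with the replicate block, *Sp5* (-2.69) first; *Tcf7* and *Lef1* of this list are also targets of the QKO guides. Beside these counts, 2.75%, 1.64% and 0.491% of all genes were called lower on the 3 removals and 5.9% (Cre), 3.44% (Cas9) and 2.05% (QKO) higher. With the block 2.14% were called lower on Lef/Tcf removal.

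BMP ligands and receptors split by gene. Of 8 tested in no Cre and in GFP sgRNA cells, 3 rose and 1 fell with high CHIR in each set, where 5.24% and 4.53% of all genes fell. In QKO control cells 4 rose and none fell, where 7.96% of all genes fell. *Bmp7* rose by 2.76, 3.91 and 4.67, *Bmp2* by 3.41, 3.93 and 2.95, and *Bmpr1b*, a type I BMP receptor, by 3.27, 2.53 and 2.83. *Bmp6* fell by 2.74 in no Cre and by 2.26 in GFP sgRNA cells. On Cre removal in high CHIR *Bmp7* (-2.95), *Bmpr1b* (-2.46) and *Bmp2* (-1.47) fell and *Bmp6* (3.34) rose; on Cas9 removal *Bmp7* (-2.26) and *Bmpr1b* (-1.42) fell and *Bmp6* (3.78) rose. QKO cells had *Bmpr1b* lower (-1.19), and with the block the receptor *Acvr1* (-0.96) too.

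The transducers and direct targets of BMP signalling showed fewer calls than the ligands and receptors in the control sets and on removal of β-catenin. Among 11 tested, 2 rose in no Cre cells, *Id4* (3.04) and *Id2* (0.95), 3 with the GFP sgRNA, *Id4* (2.81), *Smad9* (1.52) and *Id2* (1.01), and 1 in QKO control cells, *Id4* (3.31), or 2 with the block, which added *Smad9* (0.58). *Id4* and *Id2*, inhibitors of basic helix-loop-helix factors, fell on Cre removal (-2.54 and -1.32) and on Cas9 removal (-2.30 and -1.07) in high CHIR. *Id1* and *Id3*, further BMP targets of the same family, were not called in any of these, with differences of -0.70 and -0.33 on Cre removal. QKO cells had *Id2* lower (-0.69), and with the block also *Id4* (-1.46) and *Smad9* (-1.17). List medians were 0.39, 0.80 and 0.11 in the 3 control sets and -0.40, -0.37 and -0.38 in the 3 removals. Without the block, 2.8%, 2.98% and 6.98% of all genes were called higher in the 3 control sets. On the 3 removals 2.75%, 1.64% and 0.491% were called lower. The 1 of 11 in QKO control cells is near the share of all genes there.

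Among 5 BMP antagonists tested, *Bmper* alone was called in these comparisons without the block. It fell with high CHIR in the 3 control sets (-2.92, -3.69 and -3.86) and rose on Cre (3.68) and Cas9 (4.09) removal in high CHIR. In QKO cells it differed by 1.51, called only with the block, with which *Grem1* also rose with CHIR in control cells (1.55). *Nog* and *Chrd*, secreted BMP traps, differed by 0.66 and 1.09 on Cre removal and were not called. For *Bmper* and *Bmp6*, which both fell with high CHIR in no Cre and GFP sgRNA cells, the CHIR response itself was called higher in cells with β-catenin removed. So were 0.745% of all genes with Cre and 0.471% with the Ctnnb1 sgRNA, and 4 of 7 progenitor markers with each.

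Homeobox relatives of the members were mostly under the filter, with 6 of 14 tested in each edited table. *Dlx3*, a distal-less gene, rose with high CHIR by 4.27 in no Cre, 2.78 in GFP sgRNA and 3.30 in QKO control cells. It fell by 3.56 on Cre removal in high CHIR, and with the block by 1.87 in QKO cells. *Uncx* rose in GFP sgRNA (1.91) and QKO control cells (2.29) and fell on Cre removal (-1.21). *Prrx1*, a mesenchymal factor, rose by 2.28 on Cre removal, and with the block *Prrx2* fell with high CHIR in QKO control cells (-2.09) and was 1.34 higher in QKO cells. Cas9 removal called none of the 6. List medians were 0.82, 1.56 and 0.59 in the control sets and -1.04, -0.92 and -0.72 in the removals.

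**Figure D3:**
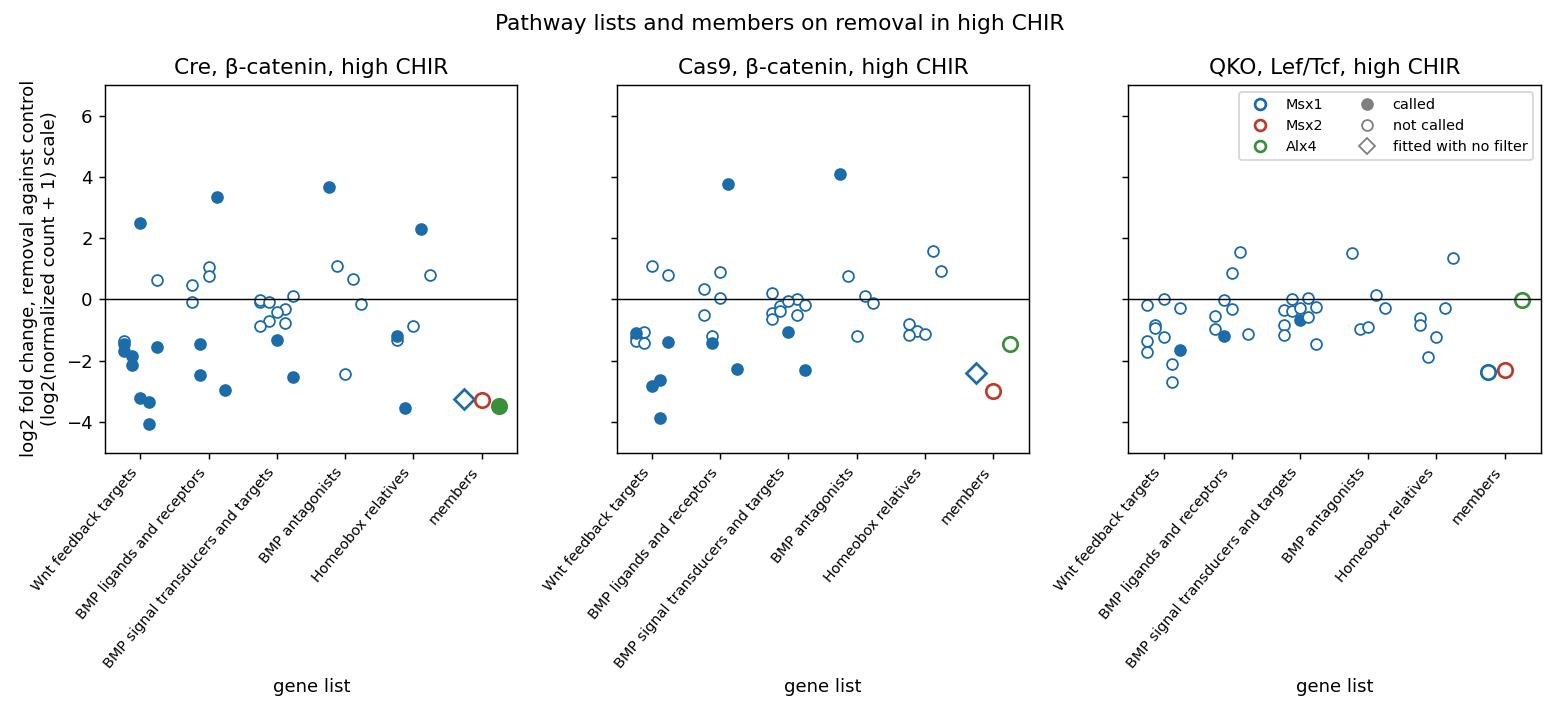
Log2 fold changes on removal in high CHIR (y axis; Cre and Cas9 removal of β-catenin, Lef/Tcf removal) for each tested gene of 5 lists and for the 3 members; each point is a gene, filled where called, and the diamond is *Msx1* fitted with no filter. Wnt feedback genes and the members lie mostly under 0, whereas *Bmp6* and *Bmper* lie at 3.34 to 4.09 on removal of β-catenin.

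Markers of cell state moved on removal as well. In high CHIR the summed progenitor markers were 2679 to 4300 normalized counts in no Cre cells and 14466 to 16761 in Cre cells, with 6 of 7 called higher. They were 3325 to 4010 and 12356 to 13583 with the GFP and Ctnnb1 sgRNA (5 of 7 higher) and 1090 to 2508 and 4178 to 5726 in QKO control and QKO cells (6 of 7 higher, 7 with the block). Induction marker sums went from 18748 to 20866 down to 3113 to 3482 with Cre (5 of 5 tested fell). They went from 23172 to 24534 down to 4912 to 7417 with the Ctnnb1 sgRNA (4 of 5 fell), and from 21545 to 37881 to 10473 to 20051 in QKO cells. There 0 of 6 were called by limma, and with the block 4 fell, *Lef1* (-2.12), *Jag1* (-1.22), *Lhx1* (-1.20) and *Wnt4* (-1.19). Without the block, 5.9%, 3.44% and 2.05% of all genes were called higher on the 3 removals and 2.75%, 1.64% and 0.491% lower. With it, 2.14% were called lower in QKO cells. Its share called higher is not given here, so the blocked progenitor count cannot be set against it.

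Markers of other cell types moved in part with the same removals in high CHIR. Summed endothelial markers (6 genes) were 66.4 to 87.4 normalized counts in no Cre and 265 to 448 in Cre cells, 81.4 to 159 and 506 to 523 with the GFP and Ctnnb1 sgRNA, and 161 to 329 and 309 to 531 in QKO control and QKO cells. *Plvap*, an endothelial membrane protein gene, rose in all of these (2.51, 2.48 and 2.14) and was the 1 gene called of 1, 1 and 3 tested. In QKO cells the other genes tested, *Tek* (-1.95) and *Pecam1* (0.02), did not follow it and were not called. In the β-catenin table *Plvap* was the only gene of the list that passed the filter, so the list as a whole is not shown to have moved. Stromal sums (10 genes) were 5273 to 6927 in no Cre and 7947 to 15218 in Cre cells. They overlapped with the sgRNAs (5064 to 14806 against 12722 to 19929) and in the Lef/Tcf table (1084 to 4781 against 1289 to 9470). No stromal gene was called of 9, 9 and 8 tested, while with the block 4 rose in QKO cells, *Col1a1* (1.86) and *Pdgfra* (1.58) most. The share of all genes called higher with the block is not given here, so these 4 cannot be set against it. Ureteric sums were 803 to 923 in no Cre and 458 to 495 in Cre cells, 757 to 845 and 480 to 633 with the GFP and Ctnnb1 sgRNA, and 868 to 1394 and 518 to 845 in QKO control and QKO cells, with 0 of 2 genes called in each. The part of these shifts in the members' levels was not tested.

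Genes whose pattern over libraries was most like each member were found by the mean of Pearson's r within the 3 tables, over 9, 16 and 11 libraries. These libraries share dose groups and normalization, and the values are a description. For *Msx1* they were *Sp5* (0.918), the growth factor gene *Pdgfa* (0.917), the homeobox gene *Cux2* (0.904), the receptor gene *Ntsr2* (0.899) and *Gata2* (0.899). Within tables, *Msx1* and *Sp5* had r of 0.983 in wild-type, 0.832 in the β-catenin and 0.939 in the Lef/Tcf libraries, although *Msx1* was under the filter in the β-catenin table.

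For *Msx2* they were *Dlx3* (0.924), *Adgrg2* (0.923), *Bmpr1b* (0.922), *Amer2* (0.909) and *Kif5c* (0.905). *Dlx3* had 5.61 to 10.2 normalized counts in wild-type no CHIR, 7.19 to 24.97 in low CHIR and 67.0 to 386 in high CHIR, the last in replicate 3. It was not among the 5 with Spearman's rho or without that replicate, whereas *Adgrg2* and *Bmpr1b* were among them both times. For *Alx4* they were *Cmip* (0.859), *Entpd4b* (0.839), *Uhrf1bp1l* (0.835), *Entpd4* (0.831) and *Slc25a37* (0.829). *Entpd4* and *Entpd4b* are near-identical copies whose reads may be split, so their values are uncertain. *Cmip* had 630 to 1154 counts in wild-type low CHIR and 599 to 1198 in high CHIR, which overlapped as *Alx4* did. In high CHIR it was lower in Cre cells (764 and 942) than in no Cre cells (1737 and 1590). Unlike *Alx4*, it was not lower with the Ctnnb1 sgRNA (2250 and 2311) than with the GFP sgRNA (2112 and 2129). In QKO cells it was higher, at 3274 to 4297 against 1151 to 2798 in control cells. Among the members, r averaged 0.825 for *Msx1* with *Msx2*, 0.629 for *Msx2* with *Alx4* and 0.572 for *Msx1* with *Alx4*. In the wild-type libraries the last was 0.293.

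**Figure D4:**
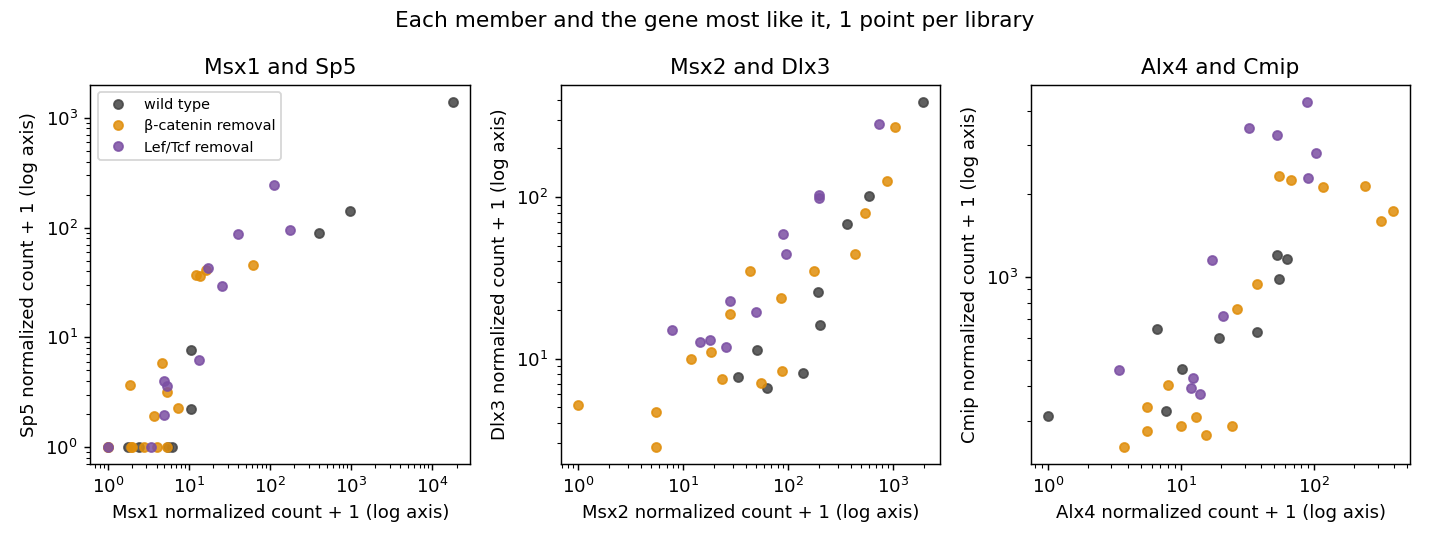
Normalized counts plus 1 (both axes log) of each member and of the gene most like it, 1 point per library, coloured by table. *Sp5* follows *Msx1* and *Dlx3* follows *Msx2* over the 36 libraries. Wild-type high CHIR replicate 3 is at the upper end of both (18058 counts of *Msx1*, 1952 of *Msx2*), and without it *Dlx3* is no longer among the genes most like *Msx2*.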

How the data were processed

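RNA of cultured mouse NPCs was measured in 36 libraries. The authors aligned paired reads with STAR to the combined GRCm38 and GRCh38 genomes, counted uniquely aligned unambiguous reads per gene with featureCounts (Subread) and deposited counts normalized by DESeq2, whose values are a signal per gene (counts divided by a size factor) and not raw counts. They form 3 tables, normalized separately. The 8 tables of the authors' comparisons (fold changes and p-values), with the 50 columns of per-library values they hold, were not used. Whether those columns repeat the libraries used here was not checked. Dividing by the value of 1 read recovered whole reads for 100% of values (tolerance 0.001). Depth sets the detection limit: 0 counts allow up to 3 reads, counting error only.

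Genes averaging 10 or more normalized counts over a table were tested by limma 3.58.1 with a variance trend, on log2(normalized count + 1), with all libraries of a table in 1 fit and Benjamini-Hochberg adjustment over all of them. This scale understates changes of low genes. Main fits had no replicate block. Same-numbered libraries deviated together in all 15 pairs of the Lef/Tcf table (correlations of 0.214 to 0.637), so blocked values stand beside its results where a call changed. In the β-catenin table they were 0.334 to 0.518 within the Cre set and 0.116 to 0.491 within the Cas9 set. Across the sets they were -0.265 to 0.278. Each group has only 2 numbers, and the block gave both sets the same effect for each number. Replicates differed beyond counting noise in every group (chi-square per degree of freedom of at least 8.41). Alternatives were pseudocounts of 0.5 and 5, no filter, TMM, edgeR 4.0.16 and DESeq2 1.42.0 on the recovered reads, fits of the compared groups alone, the replicate block and leaving out each library. The fits were tested on simulated data in R 4.3.3. The members, gene lists and tests were chosen with earlier results of these data known. Named genes are the members, at most 4 called genes per list by size of change, the 5 genes most like each member and the targeted genes. Named after their values were seen were *T*, *Evx1*, *Dlx5*, *Lyz2*, *Id1*, *Id3*, *Nog*, *Chrd*, *Tfap2a*, *Twist1*, *Plvap*, *Tek* and *Pecam1*. Gene positions and homeoboxes come from GENCODE vM21 on GRCm38, the build of the counts. A further sequence is not reported here.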

Additional observations from a re-analysis of the deposited data

Results flagged for a closer look

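In the BMP lists, 2 genes showed a response to CHIR that differed between cells with and without β-catenin by the interaction test of limma. The CHIR response of *Bmp6* was 3.50 higher on the log2 scale in Cre than in no Cre cells and 3.86 higher with the Ctnnb1 than with the GFP sgRNA. That of *Bmper* was 2.99 and 3.58 higher. In no Cre and GFP sgRNA cells both genes fell with high CHIR, so these differences are measured from a fall. Each difference was called, where 0.745% and 0.471% of all genes were called higher in these interactions. No member was called, while 4 of 7 progenitor markers were called higher in each interaction.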

How the results depend on the processing

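Of 714 alternative values for the members, 642 kept their direction and side of the threshold, 38 passed it anew, 15 no longer passed, 17 changed sign and 2, with no test, moved by more than the replicate spread. The 2 were *Msx1* in wild-type high against no CHIR, at 11.9 with edgeR and 11.6 with DESeq2 on the recovered reads. A further 5 adjusted p-values that DESeq2 did not give were left out. For the step from low to no CHIR, *Alx4* passed with a pseudocount of 5 (-2.53), with DESeq2 (-3.12) and in the fit of the compared groups alone (-3.55), and *Msx2* with DESeq2 (-1.87) and in the fit of the compared groups alone (-1.90). Cre removal in low CHIR of *Alx4* changed sign with edgeR (-0.15) and DESeq2 (-0.18). In high CHIR, *Msx2* passed on Cre removal with a pseudocount of 5 (-3.22), edgeR (-3.07) and the compared groups alone (-3.28), and *Msx1* with a pseudocount of 5 (-2.26) and DESeq2 (-4.02). On Cas9 removal *Alx4* passed with DESeq2 (-1.58) and *Msx2* with the compared groups alone (-3.00). With the compared groups alone the CHIR response of *Msx2* with the Ctnnb1 sgRNA (3.46) passed and that of *Alx4* in QKO control cells (2.78) did not. The CHIR response of *Msx1* in no Cre cells passed with a pseudocount of 5 (2.20) and DESeq2 (3.82). The interaction of Cre with CHIR passed for *Alx4* with a pseudocount of 5 (-3.34) and DESeq2 (-3.35) and changed sign for *Msx2* with a pseudocount of 0.5 (0.15). On Lef/Tcf removal in high CHIR, *Msx1* passed with a pseudocount of 5 (-2.14), edgeR (-2.63), DESeq2 (-2.64) and the compared groups alone (-2.36), and *Msx2* with DESeq2 (-2.43). In QKO cells the CHIR response passed with DESeq2 for *Msx1* (3.11) and *Msx2* (2.77). The cause of these moves was not tested.

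With the replicate block, *Msx1* (-2.36) and *Msx2* (-2.31) passed on Lef/Tcf removal in high CHIR, as did their responses in QKO cells (2.88 and 2.85); no other call of a member in that table changed. In the β-catenin table, where correlations were above 0.1 within the Cre and Cas9 sets and -0.265 to 0.278 across them, the block made *Msx2* pass on Cre (-3.28) and Cas9 (-3.00) removal in high CHIR, and *Msx1* on Cre removal (-3.27) and in the no Cre response (3.19). The block gave both sets the same effect for each number, which the correlations across them do not bear out. It raised the genes called lower on Cre removal in high CHIR from 462 to 685. In wild-type libraries (correlations of -0.0156 to 0.272) the block changed no call of a member.

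Leaving out each library in turn, in fits where a library left alone in its group is assumed to vary like the others, gave these ranges where a call or sign changed. In wild-type no against low CHIR *Alx4* ran from -4.17 to -2.50. On Cre removal in low CHIR *Alx4* ran from -0.97 to 1.16 and *Msx2* from -5.35 to -0.54. On Cas9 removal in low CHIR *Msx1* ran from -1.66 to 0.75. The CHIR response of *Msx2* ran from 3.44 to 5.68 in no Cre, from 4.37 to 5.36 with the GFP sgRNA and from 1.83 to 6.64 in Cre cells. With the Ctnnb1 sgRNA that of *Alx4* ran from 3.44 to 4.01 and that of *Msx1* from -0.093 to 1.41. The interaction with Cre ran from -4.65 to -2.53 for *Alx4* and from -2.74 to 2.07 for *Msx2*, and that with the sgRNA from -0.85 to 0.20 for *Alx4*. On Lef/Tcf removal *Msx1* ran from -2.17 to 0.13 in low and from -2.97 to -1.89 in high CHIR, and *Alx4* from -0.87 to 0.43 in high CHIR. The response of *Alx4* in QKO control cells ran from 2.18 to 3.61 and that of *Msx1* in QKO cells from 1.88 to 4.18. Of the 5 genes most like a member, Spearman's rho kept 1 for *Msx1*, 2 for *Msx2* and 1 for *Alx4*, and leaving out wild-type high CHIR replicate 3 kept 3 for each. At 0 to 5 reads per library of *Msx1* in low CHIR of the edited tables, depth limits what its differences can show.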
